A study of Homo sapiens with 40 samples.

Results

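The genes described here encode the machinery of MHC class I antigen presentation: the heavy chains HLA-B, HLA-C and HLA-E, the light chain B2M, the transporter subunits TAP1 and TAP2, the immunoproteasome subunits PSMB8 and PSMB9, and the transactivator NLRC5. They were found by matching Ensembl identifiers to gene symbols. All 9 genes had a row among the 62486 rows of the gene count table, and 8 of them passed the filter on low counts, as did 17767 genes in all. The cells were A549, a human lung adenocarcinoma line that carries the K-RAS G12S mutation and was obtained from ATCC. They were studied as Control (CT) and as SETDB1 knockout (KO). The knockout was made by CRISPR/Cas9 with a guide RNA in the PX458 plasmid. Whether the knockout cells were 1 clone or a pool, and what guide if any the control cells received, are not given in the sources used here. Both genotypes were grown in the same medium with serum, and the labels name no cytokine. RNA-seq of total RNA gave 3 libraries per genotype, and the labels do not say whether these came from separate cultures, so p-values measure the spread between these libraries, which may be technical.

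MHC class I molecules show peptides from inside a cell to CD8+ T cells. Proteins are cut by the proteasome, whose inducible form, the immunoproteasome, exchanges 3 constitutive beta subunits for PSMB8, PSMB9 and PSMB10. TAP1 and TAP2 together carry the peptides into the endoplasmic reticulum, where tapasin and its partners load them on a heavy chain bound to B2M. HLA-B and HLA-C are classical heavy chains, which present peptides to T cells, and HLA-E is best known as a ligand of inhibitory receptors on natural killer cells. NLRC5 is drawn to class I promoters by factors bound there and raises their transcription, and many tumours keep the pathway low. SETDB1 places H3K9me3, a histone mark of repressed chromatin.

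Library totals ran from 18065062 to 48364919 counts, and genes of the mitochondrial genome took 21.0% to 24.0% of them. SETDB1 was at 37.5, 39.6 and 38.7 CPM (counts scaled to a fixed library size) in the control libraries and at 23.4, 21.2 and 21.1 CPM in the knockout libraries. Its log2 fold change, knockout over control, was -0.82 (SE 0.060, adjusted p 1.7e-12 in edgeR's quasi-likelihood test), and the 2 genotypes did not overlap. The epithelial and A549 markers chosen for the line summed to 16556 to 17052 CPM in control and 22779 to 23596 CPM in knockout libraries, with 8 of 8 detected. They did not all move together. AKR1B10 fell from a mean of 4845 to 2642 CPM (log2 fold change -0.87), and the other 7 rose, KRT19 most (2.49). The 7 haematopoietic markers, whose cells are rich in class I transcripts, summed to 9.85 to 11.5 CPM in control and 5.72 to 7.75 CPM in knockout libraries, with CD3E and MS4A1 at 0 and PTPRC at 0 in every knockout library. Most of it was CD14 (mean 5.68 CPM in control, 4.76 in knockout) and ITGAM (4.21 and 1.57). ITGAM was lower in knockout (log2 fold change -1.47, edgeR adjusted p 3.8e-09), and CD14 did not pass the test. The 6 fibroblast markers summed to 3.57 to 3.70 CPM in control and 4.89 to 5.30 CPM in knockout libraries, with COL1A2 and DCN at 0. Most of it was COL1A1 (mean 3.10 CPM in control, 3.83 in knockout). COL1A1 (log2 fold change 0.30, edgeR adjusted p 0.041) and COL3A1 (1.42, edgeR adjusted p 0.00061) were higher in knockout. Of 5 endothelial markers 4 were matched, PECAM1 not among them, and these summed to 0.297 to 0.412 CPM in control and 4.15 to 5.40 CPM in knockout libraries, nearly all of it CDH5. The part of these sums in the results below was not tested, and in bulk RNA fewer cells of a type and less RNA per cell cannot be told apart.

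Of the 7 class I presentation genes above the filter on low counts in every control library, 4 were higher in knockout cells and 3 did not pass the test. The heavy chains HLA-C and HLA-E, the immunoproteasome subunit PSMB8 and the transactivator NLRC5 were higher, by 1.52-fold to 2.25-fold. The heavy chain HLA-B was called higher as well, but it passed the filter through the knockout libraries alone, so its entry into the test depended on where it was high and it is left out of these counts. The light chain B2M, the transporter subunit TAP1 and the immunoproteasome subunit PSMB9 did not pass, and TAP2 had no counts in any library. A call here means a Benjamini-Hochberg adjusted p under 0.05 in edgeR, adjusted over all genes tested. The genotype changed much of the transcriptome by this rule: 32.8% of all genes tested were called higher in knockout and 30.0% lower. The count of 0 genes lower was also 0 at an unadjusted p under 0.05, by DESeq2 and by limma voom. It was 1 (B2M) under upper quartile scaling, with the replicate number as a block and without knockout replicate 1. The 4 genes called were also those of the 7 whose genotypes did not overlap, a property of 65.8% of all genes tested. The median log2 fold change of the 7 genes was 0.60, beside 0.0038 over all genes tested.

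**Figure D1:**
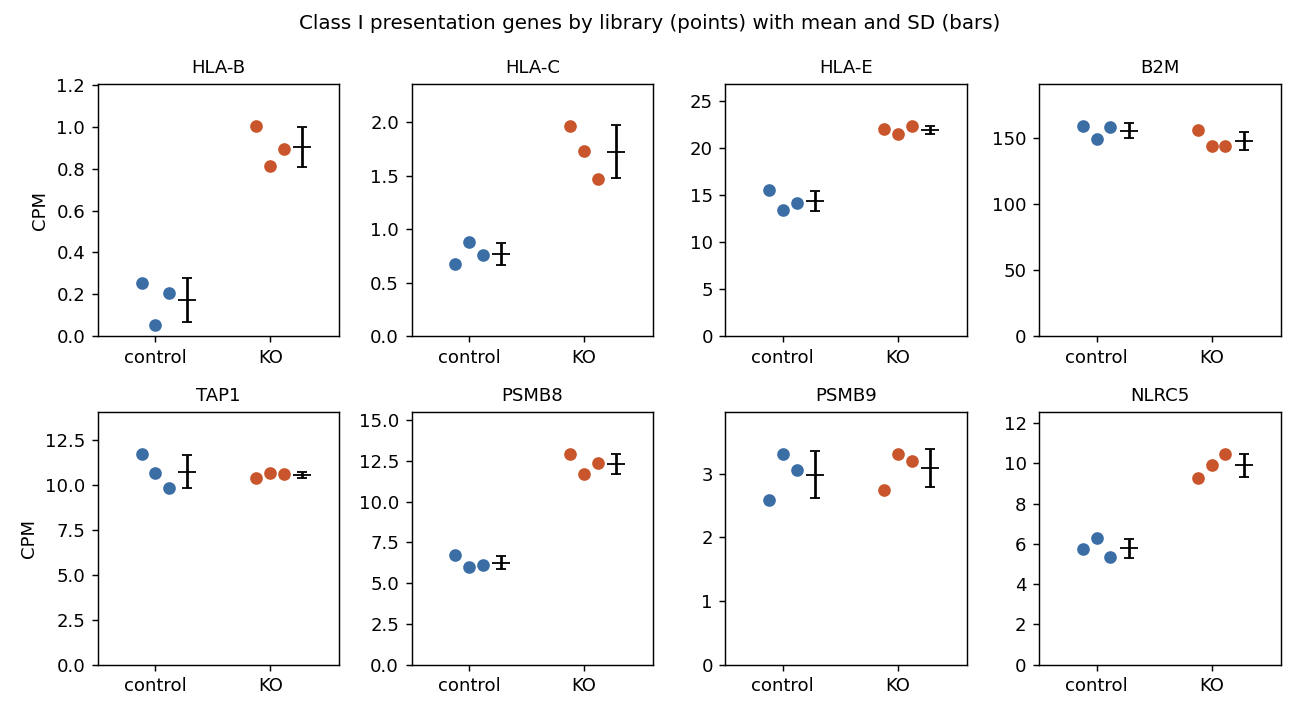
CPM (vertical axes, each starting at 0 with its own scale) of the 8 class I presentation genes with counts, in 3 control and 3 knockout (KO) libraries; points are libraries and bars are the mean with its SD. The knockout points lie above all control points for HLA-B, HLA-C, HLA-E, PSMB8 and NLRC5, and the genotypes overlap for B2M, TAP1 and PSMB9.

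The promoters of these genes are shown because neighbouring members differed in response: PSMB8 rose, and TAP1 and PSMB9 beside it did not pass the test. The sequences are the 250 bases before the transcription start in RefSeq on GRCh38.p14, 5′ to 3′ on the strand of the gene. They are the reference sequence and not that of A549, whose HLA alleles may differ. RefSeq entries were at hand for 7 of the 9 genes, and HLA-E and NLRC5 had none. Capitals mark matches to 5 motifs searched on both strands: GAAANNGAA (ISRE-like, the form bound by interferon regulatory factors), TTCNNNGAA (GAS-like, bound by STAT dimers), TGACG (the core of a cyclic AMP response element), CCAAT (the box bound by NF-Y) and GGGGATTCC (NF-kB-like). A match is a match of letters only.
HLA-B, chr6:31357180-31357429, minus strand: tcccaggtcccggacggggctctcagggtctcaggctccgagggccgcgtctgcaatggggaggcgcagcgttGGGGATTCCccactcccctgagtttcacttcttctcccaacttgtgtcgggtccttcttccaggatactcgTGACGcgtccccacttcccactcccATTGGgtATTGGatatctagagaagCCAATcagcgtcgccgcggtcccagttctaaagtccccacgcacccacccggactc
HLA-C, chr6:31272093-31272342, minus strand: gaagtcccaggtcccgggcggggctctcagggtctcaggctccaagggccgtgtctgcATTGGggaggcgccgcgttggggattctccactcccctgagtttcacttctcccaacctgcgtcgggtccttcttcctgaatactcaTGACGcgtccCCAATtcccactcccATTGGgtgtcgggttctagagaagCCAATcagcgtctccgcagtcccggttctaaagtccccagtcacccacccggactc
B2M, chr15:44711267-44711516, plus strand: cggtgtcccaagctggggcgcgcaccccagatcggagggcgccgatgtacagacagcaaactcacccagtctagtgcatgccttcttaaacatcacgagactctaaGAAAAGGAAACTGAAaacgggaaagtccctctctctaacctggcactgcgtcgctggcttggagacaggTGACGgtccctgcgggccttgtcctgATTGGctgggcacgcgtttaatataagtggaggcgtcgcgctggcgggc
TAP1, chr6:32853705-32853954, minus strand: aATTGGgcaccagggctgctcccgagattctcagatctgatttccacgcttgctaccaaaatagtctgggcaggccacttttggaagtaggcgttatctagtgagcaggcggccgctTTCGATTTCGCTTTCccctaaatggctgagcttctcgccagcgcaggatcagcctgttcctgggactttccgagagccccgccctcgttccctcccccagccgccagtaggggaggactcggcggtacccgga
PSMB9, chr6:32853942-32854191, plus strand: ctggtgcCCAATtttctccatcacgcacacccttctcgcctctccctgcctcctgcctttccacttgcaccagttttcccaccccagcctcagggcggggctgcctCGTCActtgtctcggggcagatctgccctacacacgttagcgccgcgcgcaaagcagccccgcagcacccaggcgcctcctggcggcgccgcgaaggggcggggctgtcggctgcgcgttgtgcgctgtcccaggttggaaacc
PSMB8, chr6:32844680-32844929, minus strand: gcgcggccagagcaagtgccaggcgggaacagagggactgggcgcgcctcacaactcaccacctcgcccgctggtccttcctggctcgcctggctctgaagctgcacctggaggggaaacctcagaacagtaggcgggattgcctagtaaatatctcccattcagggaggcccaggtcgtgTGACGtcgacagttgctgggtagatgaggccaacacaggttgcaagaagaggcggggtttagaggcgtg

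The windows of HLA-B and HLA-C matched in 226 of 254 aligned columns (89.0%), and both held the cyclic AMP response core and several NF-Y boxes. Only the HLA-B window of the 6 shown held GGGGATTCC, a motif found in 0.253% of the 35116 promoter windows of the same length. The B2M and TAP1 windows each held 2 overlapping GAAANNGAA matches, a motif found in 6.88% of windows, and neither gene passed the test. The cyclic AMP response core stood in 21.2% of windows and the NF-Y box in 32.0%. The starts of TAP1 and PSMB9 lay 488 bases apart on opposite strands, so their windows overlap and share the NF-Y box at the far end. The PSMB8 window held a single cyclic AMP response core, and the window of a second PSMB8 start held a single TTCNNNGAA, a motif found in 6.57% of windows. The TAP2 window, not printed, held 1 ISRE-like match and 1 cyclic AMP response core. The cyclic AMP response core stood in the windows of HLA-C and the first start of PSMB8, genes that rose. It also stood in those of B2M and PSMB9, which did not pass the test. The HLA-B window held it too, but that window is much like that of HLA-C. HLA-B passed the filter on low counts through the knockout libraries alone. A second TAP1 start had a single TTCNNNGAA.

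**Figure D2:**
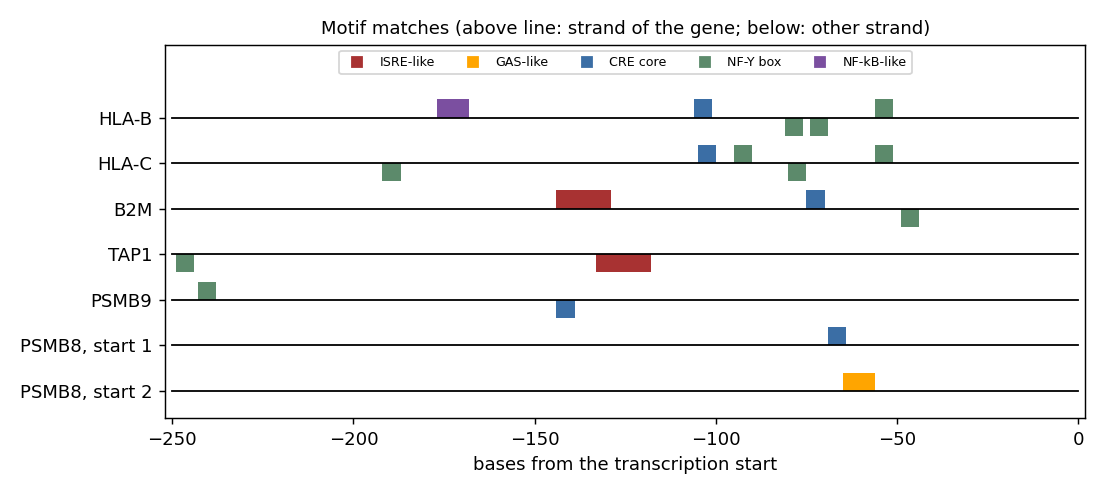
Positions of the motif matches in the 250 bases before each start (horizontal axis, bases from the transcription start), for 6 genes with a second start of PSMB8; boxes above a line are on the strand of the gene and boxes below it on the other strand. HLA-B and HLA-C carry NF-Y boxes and the cyclic AMP response core (labelled CRE core), the core within a base of the same place, and the pairs of ISRE-like matches lie in B2M and TAP1.

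The classical heavy chains HLA-B and HLA-C were counted at low levels and rose in knockout cells. HLA-B (ENSG00000234745) had 6, 1 and 6 counts in the control libraries and 23, 40 and 20 counts in the knockout libraries. That is 0.255, 0.0552 and 0.206 CPM in control and 1.00, 0.812 and 0.891 CPM in knockout. Every knockout library was above every control library, and control replicate 2 was the lowest. The fitted difference was 4.71-fold (log2 2.24, SE 0.37, edgeR adjusted p 6.6e-06), and without a filter on low counts it was 2.28 on the log2 scale (edgeR adjusted p 3.3e-08). Over a genotype, the exact Poisson 95% interval was 6.92 to 22.2 around 13 counts in control and 66.1 to 103 around 83 counts in knockout, for counting error only.

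HLA-C (ENSG00000204525) had 16, 16 and 22 counts in control and 45, 85 and 33 counts in knockout libraries, or 0.680, 0.883 and 0.756 CPM against 1.96, 1.72 and 1.47 CPM. The genotypes were well apart, and the knockout library lowest in HLA-C was replicate 3. HLA-C rose 2.25-fold (log2 1.17, SE 0.22, edgeR adjusted p 3.8e-05). Its summed counts were 54 in control (exact Poisson 95% interval 40.6 to 70.5) and 163 in knockout (139 to 190). HLA-C had fewer counts per count of HLA-B in knockout libraries: 267, 1600 and 367 HLA-C counts per 100 HLA-B counts in control, and 196, 212 and 165 in knockout. The difference of the log2 ratio was -1.29, with a two-sided exact permutation p of 0.1, the smallest that 3 against 3 libraries can give. Without control replicate 2, the library with a single HLA-B count, the difference was -0.65. As HLA-B passed the filter through the knockout libraries alone, this ratio is no separate support for a change.

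HLA-E (ENSG00000204592), a non-classical heavy chain, was measured with many more reads and little spread. It was at 15.5, 13.5 and 14.2 CPM in control and 22.0, 21.6 and 22.4 CPM in knockout libraries, from 244 to 413 and 503 to 1063 counts. The knockout libraries lay within a narrow band above all control libraries. The mean rose from 14.4 ± 1.05 to 22.0 ± 0.423 CPM (SD, n = 3 each), or 1.52-fold (log2 0.60, SE 0.070, edgeR adjusted p 1.8e-08). HLA-F, another non-classical heavy chain, did not pass the test (log2 fold change 0.31, edgeR adjusted p 0.39), and HLA-G had no counts in any library.

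Class I heavy chain genes share long stretches of near-identical sequence and differ between people, and how reads that match several of them were counted is not given in the sources used here. The values of HLA-B and HLA-C are therefore uncertain. Where each read that matches both genes was given to 1 of them, the sum of their rows does not depend on which; reads dropped or counted in both rows would change it. The sum of HLA-B and HLA-C was 0.934, 0.938 and 0.962 CPM in control and 2.97, 2.54 and 2.36 CPM in knockout libraries. The control libraries differed far less in this sum than in HLA-B alone, and the genotypes did not overlap. The control sums rest on 22, 17 and 28 counts, so their spread is smaller than counting error and no measure of precision. Whether shared reads set the spread of HLA-B was not tested. The sum rose from 0.945 ± 0.0148 to 2.62 ± 0.312 CPM (SD, n = 3 each), or 1.46 on the log2 scale (SE 0.19, edgeR adjusted p 1.2e-07). With HLA-E added, the sum of the 3 rows rose from 15.3 ± 1.05 to 24.6 ± 0.471 CPM (SD, n = 3 each), or 0.68 on the log2 scale (SE 0.068, edgeR adjusted p 1.2e-09), and HLA-E gave most of the gain in CPM. Reads shared with HLA rows outside these 3 were not examined.

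**Figure D3:**
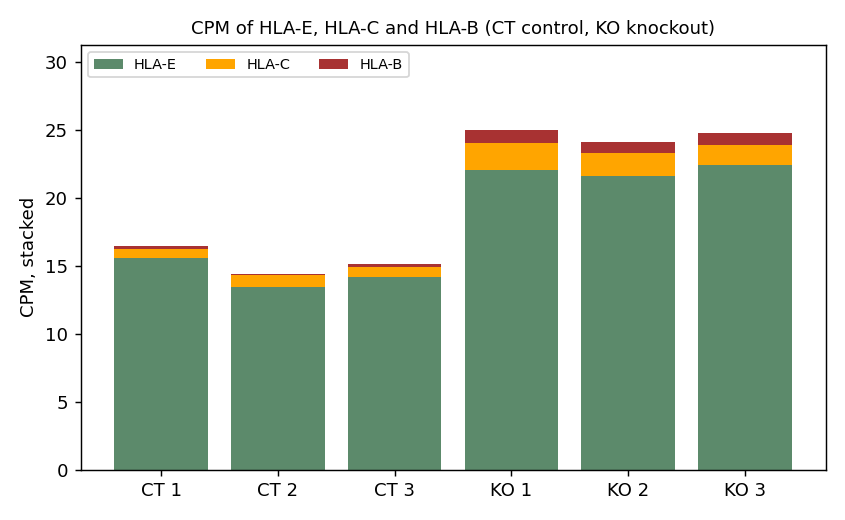
Stacked CPM of the HLA-E, HLA-C and HLA-B rows in each of the 3 control (CT) and 3 knockout (KO) libraries. HLA-E fills most of each bar, and the HLA-E, HLA-C and HLA-B segments are taller in every knockout library than in any control library.

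B2M (ENSG00000166710, chromosome 15), the light chain that every heavy chain needs to reach the cell surface, was at 159, 149 and 158 CPM in control and 156, 144 and 144 CPM in knockout libraries. The genotypes overlapped. The means were 155 ± 5.52 and 148 ± 6.93 CPM (SD, n = 3 each), a log2 fold change of -0.07 (SE 0.045) with an edgeR adjusted p of 0.15. B2M passed as lower under upper quartile scaling (-0.11, edgeR adjusted p 0.033), without knockout replicate 1 (-0.11, edgeR adjusted p 0.038) and with the replicate number as a block (-0.073, edgeR adjusted p 0.046). The log2 ratio of B2M to HLA-B counts differed by -2.49 between genotypes (exact permutation p 0.1). It rests on 6, 1 and 6 HLA-B counts in control libraries. HLA-B passed the filter through the knockout libraries alone, so this ratio is no separate support for a change. CPM is not corrected for gene length, so levels of different genes are not compared.

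TAP1 (ENSG00000168394), a subunit of the peptide transporter, was at 11.7, 10.7 and 9.86 CPM in control and 10.4, 10.7 and 10.6 CPM in knockout libraries. All knockout values fell inside the control range. The means were 10.7 ± 0.936 and 10.6 ± 0.156 CPM (SD, n = 3 each, edgeR adjusted p 0.87). TAP2 (ENSG00000204267), the other subunit, had a count of 0 in all 6 libraries and was not tested. A count of 0 allows up to 3 counts, or 0.0609 to 0.166 CPM by library, for counting error only. The 3 rows before TAP2 in the table, of HLA-DQB2, HLA-DOB and a gene with no symbol, were also at 0 throughout. The row after it was that of PSMB8, with 108 to 577 counts, followed by its antisense gene PSMB8-AS1 at 0 and by PSMB9, with 60 to 163 counts. Whether overlapping gene models set these zeros was not tested, and no TAP1 to TAP2 ratio was formed.

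The 2 immunoproteasome subunits of the set differed. PSMB8 (ENSG00000204264), which takes the place of PSMB5, was at 6.71, 5.96 and 6.11 CPM in control and 12.9, 11.7 and 12.3 CPM in knockout libraries. Its lowest knockout library was well above its highest control library. The mean rose from 6.26 ± 0.396 to 12.3 ± 0.607 CPM (SD, n = 3 each), or 1.95-fold (log2 0.96, SE 0.090, edgeR adjusted p 3.2e-10). PSMB9 (ENSG00000240065), which takes the place of PSMB6, was at 2.59, 3.31 and 3.06 CPM in control and 2.75, 3.31 and 3.21 CPM in knockout libraries. These ranges overlapped almost fully, with a log2 fold change of 0.08 (SE 0.14) and an edgeR adjusted p of 0.65. Counts of PSMB8 per 100 counts of PSMB9 were 259, 180 and 200 in control and 470, 354 and 385 in knockout libraries, a difference of 0.93 in the log2 ratio (exact permutation p 0.1, a pair chosen after its values were seen).

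PSMB10, the third catalytic subunit of the immunoproteasome, which takes the place of PSMB7, rose with a log2 fold change of 1.17 (edgeR adjusted p 4.0e-08), from 2.13 ± 0.405 to 4.81 ± 0.220 CPM (SD, n = 3 each). Of the 4 inducible proteasome partners listed, 3 rose and 1 fell: besides PSMB10, the activator subunits PSME1 (0.40) and PSME2 (0.25) rose, and POMP (-0.34), which helps assemble proteasomes, fell. That is 75% higher and 25% lower, beside 32.8% and 30.0% of all genes tested. Of the 7 beta subunits listed as constitutive, only PSMB5, PSMB6 and PSMB7 are exchanged in the immunoproteasome, and both forms share the others. These 7 gave 6 lower, 0 higher and 1 not called, with a median log2 fold change of -0.16. That is 85.7% lower, beside 30.0% of all genes tested. PSMB6 (-0.37), PSMB5 (-0.27), PSMB1 (-0.18) and PSMB3 (-0.16) fell most. PSMB7 (-0.12, edgeR adjusted p 0.025) was no longer called in 6 of 15 alternative settings, and between 4 and 6 of the 7 were called lower under other scalings, filters and left-out libraries. The 7 alpha subunits, which both proteasome forms share as well, gave 4 lower, 0 higher and 3 not called. That is 57.1% lower, beside the same 30.0%. Among the lower were PSMA3 (-0.45), PSMA5 (-0.44) and PSMA4 (-0.18).

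Set within each library, the ratio of an inducible subunit to the constitutive subunit it replaces was higher in knockout for all 3 pairs. Counts of PSMB8 per 100 counts of PSMB5 were 6.98, 6.69 and 6.52 in control and 17.0, 15.3 and 15.4 in knockout libraries, a difference of 1.24 in the log2 ratio. Counts of PSMB10 per 100 counts of PSMB7 were 2.15, 1.75 and 1.55 in control and 4.79, 4.51 and 4.09 in knockout libraries, a difference of 1.30. Counts of PSMB9 per 100 counts of PSMB6 were 2.38, 3.17 and 2.75 in control and 3.43, 3.95 and 3.67 in knockout libraries, a difference of 0.42. In the PSMB9 pair PSMB9 itself did not pass the test and PSMB6 was lower. The genotypes did not overlap for any of the 3 ratios, and each gave a two-sided exact permutation p of 0.1 (0.11 adjusted over 8 ratios). Counts of TAP1 per 100 counts of PSMB9, genes that share a promoter region, were 452, 322 and 322 in control and 378, 323 and 331 in knockout libraries (exact permutation p 1).

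**Figure D4:**
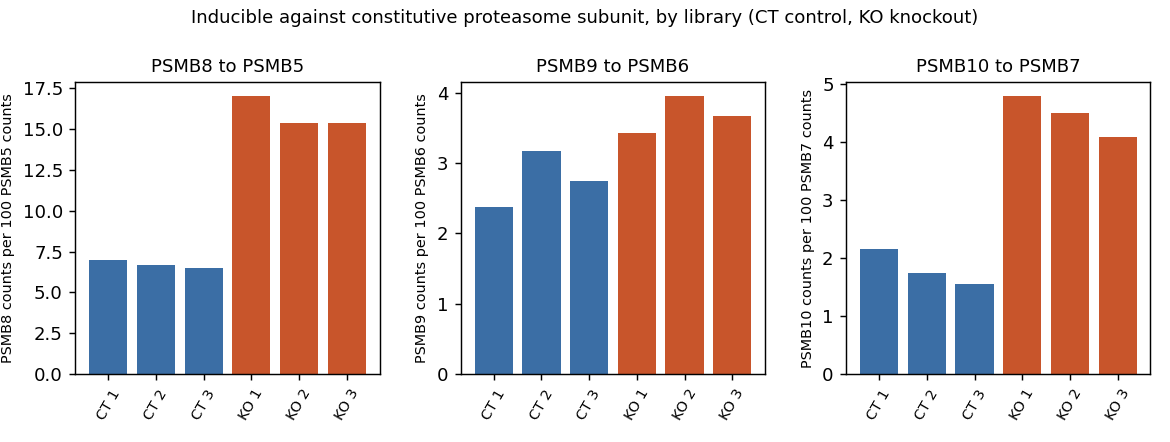
Counts of an inducible proteasome subunit per 100 counts of the constitutive subunit it replaces (vertical axes from 0), by library, in control (CT) and knockout (KO). All knockout bars exceed all control bars in the 3 panels; the PSMB9 to PSMB6 panel has the smallest gap, with 3.17 as the highest control and 3.43 as the lowest knockout value.

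NLRC5 (ENSG00000140853, chromosome 16), the class I transactivator, was at 5.73, 6.29 and 5.36 CPM in control and 9.30, 9.94 and 10.5 CPM in knockout libraries. The genotypes were far apart relative to their spread. The mean rose from 5.80 ± 0.470 to 9.90 ± 0.588 CPM (SD, n = 3 each), or 1.73-fold (log2 0.79, SE 0.096, edgeR adjusted p 5.2e-08). Its class II counterpart CIITA was at 2.20 ± 0.487 and 2.04 ± 0.154 CPM (SD, n = 3 each, edgeR adjusted p 0.73). Of 14 factors that bind class I promoters, 8 rose, 2 fell and 4 did not pass the test, with a median log2 fold change of 0.18. That is 57.1% higher and 14.3% lower, beside 32.8% and 30.0% of all genes tested. Only 1 was called lower by DESeq2, with library size scaling, without the filter, and without control replicate 2, knockout replicate 1 or knockout replicate 3. With DESeq2 size factors in edgeR, upper quartile scaling or a filter of 1 CPM in 3 libraries, 3 were called lower. IRF2 (0.60) and USF2 (0.51) rose, as did NFYB (0.48), a subunit of the factor that binds CCAAT. The subunits of this factor did not move together. NFYC fell (-0.16, edgeR adjusted p 0.034), and NFYA did not pass the test (-0.090, edgeR adjusted p 0.31). IRF1 (0.37, edgeR adjusted p 0.00025), an interferon-induced activator of class I genes, rose from 11.6 ± 0.833 to 14.9 ± 0.846 CPM (SD, n = 3 each). CREB1 (-0.55), which binds TGACG, fell.

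Peptide loading was led by TAPBPL, a tapasin-related peptide editor, which rose from 2.30 ± 0.330 to 11.6 ± 0.418 CPM (SD, n = 3 each; log2 fold change 2.35, SE 0.11, edgeR adjusted p 2.6e-16). TAPBP, which encodes tapasin, the bridge between the transporter and the heavy chain, rose from 17.2 ± 1.45 to 31.0 ± 0.767 CPM (SD, n = 3 each, log2 fold change 0.85, edgeR adjusted p 8.3e-12). The trimming peptidase ERAP1 (0.28) and the chaperone CALR (0.23) rose as well. Of the 8 genes on the list 4 rose and 0 fell, and CANX, PDIA3, ERAP2 and LNPEP did not pass the test. That is 50% higher and 0% lower, beside 32.8% and 30.0% of all genes tested. With library size scaling, without the filter, with the replicate number as a block, without control replicate 1 or without knockout replicate 2, 6 of the 8 were called higher.

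Genes of interferon signalling, the classical inducer of the pathway, were called in both directions. Of 11 receptor and signalling genes tested of 12 listed, 4 rose, 3 fell and 4 did not pass the test, with a median log2 fold change of 0.11. The shares of 36.4% higher and 27.3% lower are near the 32.8% and 30.0% of all genes tested, and without knockout replicate 2 only 2 were called higher. STAT2 (0.93) rose, from 37.3 ± 0.871 to 70.7 ± 1.23 CPM (SD, n = 3 each). The feedback inhibitor SOCS3 (-1.40), the phosphatase PTPN2 (-0.41) and the kinase JAK1 (-0.29) fell. JAK1 went from 358 ± 2.83 to 293 ± 4.82 CPM (SD, n = 3 each, edgeR adjusted p 2.6e-07).

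Among the 8 class I-like genes, 6 were tested, of which 3 rose, 2 fell and 1 did not pass. That is 50% higher and 33.3% lower, beside 32.8% and 30.0% of all genes tested. FCGRT, the heavy chain of the neonatal Fc receptor, which also pairs with B2M, rose from 15.5 ± 0.281 to 40.1 ± 1.87 CPM (SD, n = 3 each, log2 fold change 1.37, edgeR adjusted p 4.9e-17). MR1, which presents vitamin metabolites, rose (0.69) and PROCR, which binds protein C, fell (-0.69). MICB (-0.56, edgeR adjusted p 0.015), a stress ligand of natural killer cells, fell, but was not called under DESeq2, without control replicate 3 or without knockout replicate 3. Of 13 class II genes listed 9 had no counts in any library and 4 were tested. HLA-DMA (1.18) and HLA-DMB (0.86), which load class II molecules, rose, and the invariant chain CD74 (-1.22) fell. Over the 62 pathway genes tested of 75 listed, 24 rose, 19 fell and 19 did not pass, with a median log2 fold change of 0.078. The shares of 38.7% higher and 30.6% lower are near those of all genes tested (32.8% and 30.0%).

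**Figure D5:**
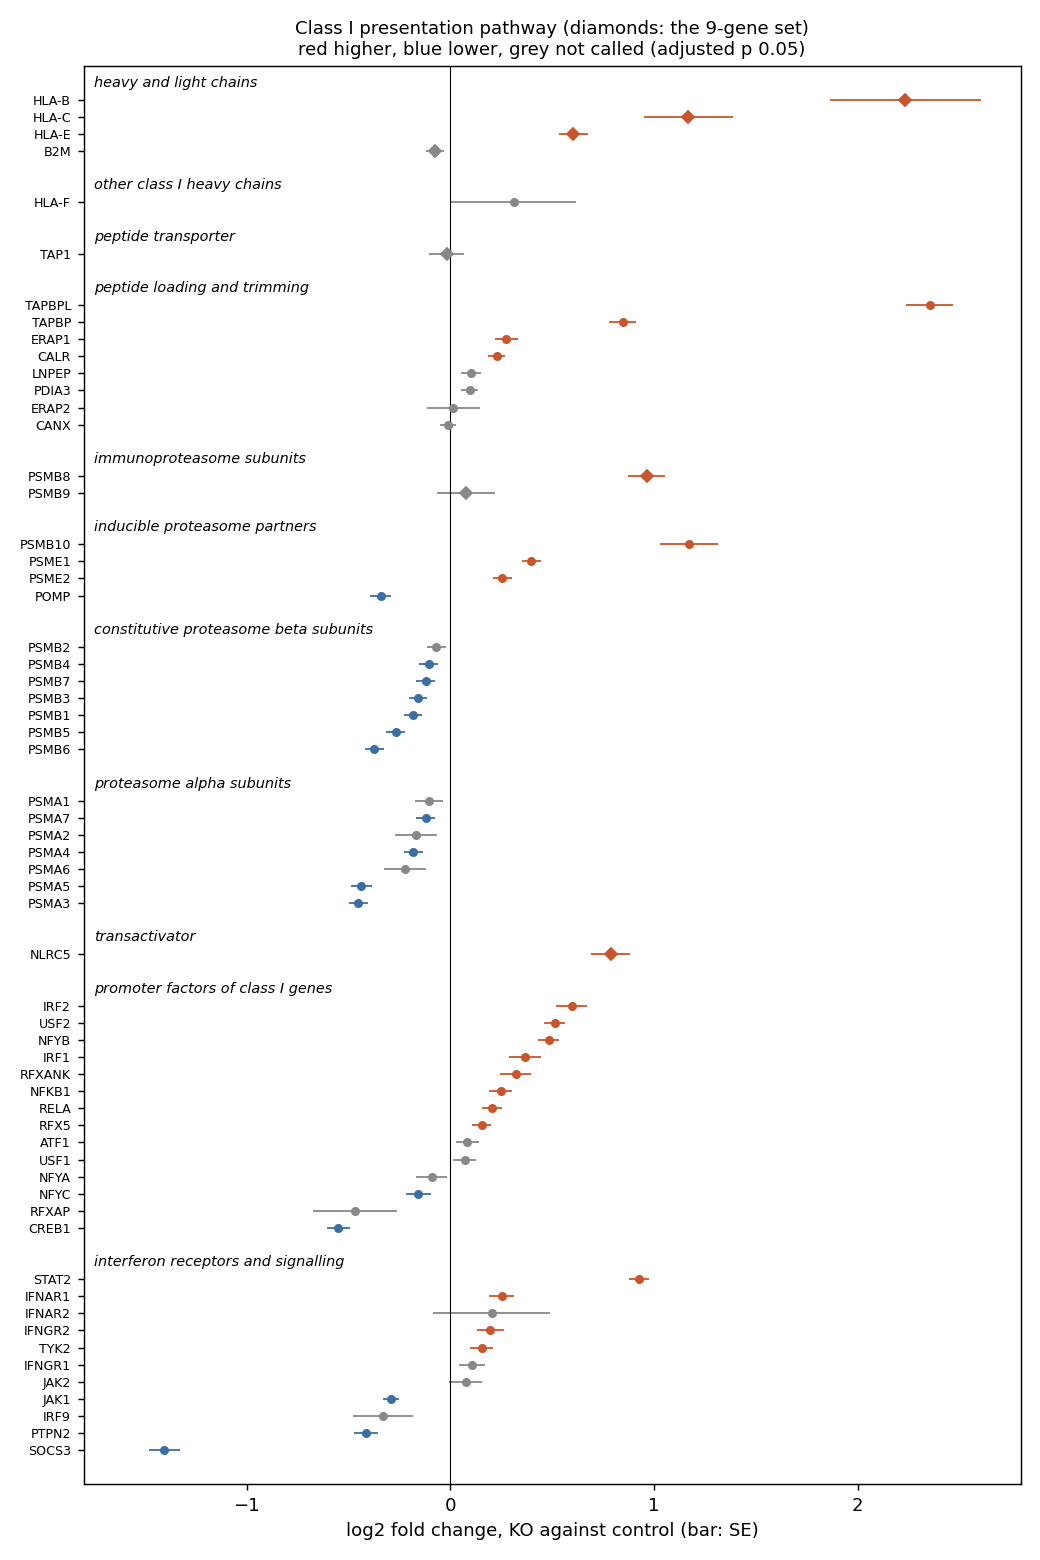
Log2 fold change, knockout over control, of the tested class I presentation genes (diamonds) and tested pathway genes (circles), with the SE as a bar. The class I-like and class II lists are not drawn. Red marks genes called higher, blue genes called lower and grey genes not called by edgeR. HLA-B and TAPBPL lie farthest to the right at 2.24 and 2.35, and PSMB8 and PSMB10 lie near each other at 0.96 and 1.17. The beta subunits listed as constitutive lie left of zero.

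Of the 8 genes tested, 6 lie on chromosome 6, where the median log2 change over 752 tested genes was -0.051. The median was -0.040 on chromosome 15, where B2M lies, and 0.080 on chromosome 16, where NLRC5 lies. In the order of genes along the chromosome, TAP1 and PSMB9 stood between genes that rose. PSMB8 lay on one side, and HLA-DMB and HLA-DMA on the other. Of the 3 nearest tested genes on each side, 3 of 6 rose around TAP1 and 4 of 6 around PSMB9, and 0 fell around either. PSMB8, itself a member, HLA-DMB and HLA-DMA were counted around both, so these counts are not separate. Of all genes tested, 32.8% were called higher and 30.0% lower. Around HLA-E, 1 of 6 neighbours rose and 0 fell, and around NLRC5, 2 rose and 2 fell. Around PSMB8, 2 rose and 0 fell, around HLA-B and HLA-C each 3 rose and 1 fell, and around B2M 0 rose and 3 fell. The counts of HLA-B and HLA-C include each other. HLA-B and HLA-C were each other's near neighbours, with TCF19 (0.44, edgeR adjusted p 0.020) beside HLA-C on one side and MICA (0.080, edgeR adjusted p 0.54) beside HLA-B on the other. Whether members changed together with the genes next to them was not tested.

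Genes with a pattern most like the median profile of the set were sought over the 6 libraries among genes with a mean of at least 5 CPM. The median profile of the 8 genes, on a log2 scale centred on control, was 0.067, -0.034 and -0.021 in control and 0.65, 0.68 and 0.74 in knockout libraries. This median mixes 5 genes called higher with B2M, TAP1 and PSMB9, which did not pass the test and had no such step. Among the 5 is HLA-B, which passed the filter through the knockout libraries alone. The nearest to the median profile were ARFGAP3, PRKACB and CPM (here the gene of carboxypeptidase M), at root mean square differences of 0.028, 0.029 and 0.031 on the log2 scale. For HLA-B alone the nearest were LINC00886, AGMO and SH3BGRL2, at 0.28, 0.32 and 0.33. The 6 libraries fall into 2 genotypes, and many genes have such a step.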

How the data were processed

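RNA-seq libraries were made from total RNA with a stranded Truseq kit, per the labels' protocols. The authors deposited 1 table of whole-number counts per gene for the 6 libraries. The submitters' processing notes name STAR 2.6.1c, edgeR 3.30.0 and hg19, without saying which step each served; the counter, its strand setting and its rule for reads that match several genes are not given in the sources used here. Of 62486 gene identifiers, 58642 (93.8%) matched a symbol, and all per-sample columns were mapped (0 unmapped). Libraries were grouped by genotype from the labels.

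The quasi-likelihood F-test of edgeR 4.0.16 (R 4.3.3) compared genotypes with no other term, after TMM scaling and filterByExpr, with robust dispersions; p-values were adjusted by Benjamini and Hochberg over all 17767 genes tested, with 0.05 as the threshold. CPM used TMM-scaled library sizes. Log2 ratios within a library used a pseudocount of 0.5 and a two-sided exact permutation test. Intervals and limits for a count of 0 cover counting error only. The fit was tested on simulated counts. Alternatives were other scalings and filters, DESeq2 1.42.0, voom in limma 3.58.1, a replicate block, removal of mitochondrial genes, each library left out, and sums of HLA rows, the last chosen after seeing the data. No pair of libraries agreed within sampling noise.

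The members and the pathway and marker lists were chosen with earlier results of these data known. All members were named, with SETDB1, 6 reference genes whatever their value (PSMB5, PSMB6, PSMB7, PSMB10, TAPBP and IRF1) and, of each list, called genes among its 4 largest changes and the 3 genes nearest in profile; the 3 tested neighbours on each side of a member were counted, and those named among them, like other names, were chosen after their values were seen. Promoters and gene order came from RefSeq tables on GRCh38.p14, the order used for names only. Peaks, TADs and compartments at these genes and protein sequences were not analysed here, and some genes listed for the pathway are not reported here.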

Additional observations from a re-analysis of the deposited data

How the results depend on the processing

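Over 739 recomputed values, 719 kept their direction and their side of the threshold or, for counts of genes, stayed within 1.5 times. HLA-C, HLA-E, PSMB8 and NLRC5 did so in every alternative. Their log2 fold changes ranged from 1.09 to 1.25, 0.57 to 0.66, 0.93 to 1.02 and 0.73 to 0.84. HLA-B did so in every alternative that gave a value, at 1.93 to 2.54, and gave none under a filter of 1 CPM in 3 libraries. In the main fit HLA-B passed the filter through the knockout libraries alone, so these values are no separate support for its call. The count of class I presentation genes lower in knockout went from 0 to 1 (B2M) under upper quartile scaling and under the replicate block (B2M -0.073, adjusted p 0.046), and ranged from 0 to 1 with each library left out. The replicate block changed no other call among the members, and raised the peptide loading genes called higher from 4 to 6. Libraries of the 2 genotypes share only a number: same-numbered ones deviated together with correlations of 0.11, 0.064 and 0.047, and 5 of 6 correlated best with their own number, a hint from the data and not the design. The sum of HLA-B and HLA-C passed in every alternative, at 1.39 to 1.51, and at 0.68 with HLA-E added; both sums were chosen after seeing the data. Signs turned for genes near zero: TAP1 was 0.014 with library size only, 0.023 without a filter and -0.087 to 0.057 with a library left out; PSMB9 was -0.0093 to 0.15 and the log2 ratio of TAP1 to PSMB9 -0.15 to 0.092 with a library left out. The cause was not tested. All genes called numbered 9759 by DESeq2 and 11655 with the replicate block, and the higher and lower split was 5432 and 5802 under upper quartile scaling. Depth limits HLA-B, with 13 counts over the control libraries.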
